A study of Mus musculus with 12 samples.

Results

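The epidermal differentiation complex is a cluster of genes on mouse chromosome 3 that encode much of the protein of the outer epidermis. Members were chosen by name: every gene of the deposited files whose symbol begins with Sprr, Lce or S100a followed by its number, together with Ivl, Lor, Flg, Flg2, Hrnr, Rptn, Tchh, Tchhl1 and Crct1. The files held 45 such symbols, counted as 44 genes because Sprr2a1 and Sprr2a2 carry identical values, out of 10742 genes in all. The RefSeq annotation of GRCm38.p6, the assembly of mm10, places 62 genes of these names on chromosome 3 between 90511034 and 93564645, a stretch of 3.05 Mb. Of these, 17, among them loricrin (Lor), filaggrin (Flg), hornerin (Hrnr) and S100a8, are in none of the 4 files, which does not show that they were unexpressed or unchanged.

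Keratinocytes leaving the basal layer build a cornified envelope, a shell of proteins cross-linked by transglutaminases under the plasma membrane. Involucrin (Ivl) is an early scaffold of that shell, the small proline-rich (Sprr) proteins bridge its components, and the late cornified envelope (Lce) proteins are added on its inner side. Fused-type S100 proteins such as filaggrin 2, repetin and trichohyalin bind keratin filaments or enter the envelope, and the S100a genes encode small calcium-binding proteins. Raising calcium in the medium is the classic switch that sets this programme going in culture.

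Primary keratinocytes from the epidermis of newborn mice were grown on mitomycin C-treated 3T3 feeder fibroblasts to passage 3, in medium of 15% serum and 0.05 mM calcium. The 4 groups were day 4 (differentiated by a calcium shift) and day 0 (undifferentiated), each as immunoprecipitated and as input polyadenylated RNA, with 3 libraries in every group. Immunoprecipitation used an antibody against N6-methyladenosine (m6A), the commonest internal modification of mRNA; the labels give neither mouse strain nor genotype, nor the calcium concentration after the shift, nor whether replicates came from separate animals. The files hold the authors' comparisons and 1 peak list per day, with no value per library, so depth is unknown and values of single samples cannot be shown. The expression p-values (DESeq2) measure the spread between these libraries only. Which test gave the p-values of peaks and methylation sites is unknown, so they cannot be read as a measure of that spread.

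All 6 keratinocyte markers checked were listed, among them Krt14 with a mean normalized count of 209477 and Krt5 with 196003 per the authors' deposited table. Of 10 fibroblast and feeder markers 2 were listed, of 8 melanocyte markers 2, of 8 neutrophil and other myeloid markers 2, of 4 Langerhans and T cell markers 0 and of 4 Merkel cell markers 2. Only genes called as changed between the days are listed, so a marker not listed may still be present and unchanged. These counts therefore do not show which cell types were present or absent. The Merkel markers listed were Krt8 (log2 fold change 2.20) and Krt18 (2.97) per the authors' deposited table, keratins that simple epithelia also make. In bulk RNA, fewer cells of a type and less RNA per cell cannot be told apart.

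The listed members split evenly by direction at day 4, much as all listed genes did. In the authors' deposited table, 22 members rose and 22 fell, with a median log2 fold change of -0.19 against 0.26 over the 7978 genes listed. That table holds only genes at an adjusted p under 0.05 (DESeq2), 53.5% of 14924 genes tested, 27.1% of them higher at day 4 and 26.4% lower, so every listed member had passed by construction. The header does not give the direction of its fold changes; day 4 over day 0 was read from genes outside the complex with peaks on 1 day only. The largest adjusted p of a member was 0.0155, for Flg2, per the authors' deposited table. Changes of at least 2-fold were seen for 17 of the 22 higher members, against 41.7% of all listed higher genes, and for 20 of the 22 lower members, against 37.5% of all listed lower genes, per the authors' deposited table. Of the 21 members averaging at least 100 normalized counts 15 rose and 6 fell, and of the 23 with fewer 7 rose and 16 fell, per the authors' deposited table. All 23 members with fewer changed at least 2-fold, against 10 of the 15 and 4 of the 6 with more. Only 1574 of the 7978 listed genes averaged under 100. The 2-fold shares of members and of all listed genes are therefore not like for like.

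Listed members of one direction often followed each other. Read along the chromosome, the 44 members formed 9 runs of one direction, the longest holding 12 genes, from S100a13 to Sprr2b, all higher at day 4. The next 6 listed genes, Sprr2d to Sprr2j-ps, all fell. Sprr2k and Sprr1b rose, Sprr3 fell, and Sprr1a and Ivl rose. Within the Lce genes, a run of 4 that fell (Lce1a1 to Lce1d) was followed by 3 that rose (Lce1e, Lce1f and Lce1h). Then came 11 genes that fell, from Lce1i through the whole Lce3 group to Rptn, before Tchh, S100a11 and S100a10 rose at the far end. Unlisted genes of the locus lie within these runs, such as Lor in the first and Sprr2e in the second, so the runs are not unbroken blocks. Near-copies among neighbours may also share reads. The order was noticed in the values and was not tested.

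**Figure D1:**
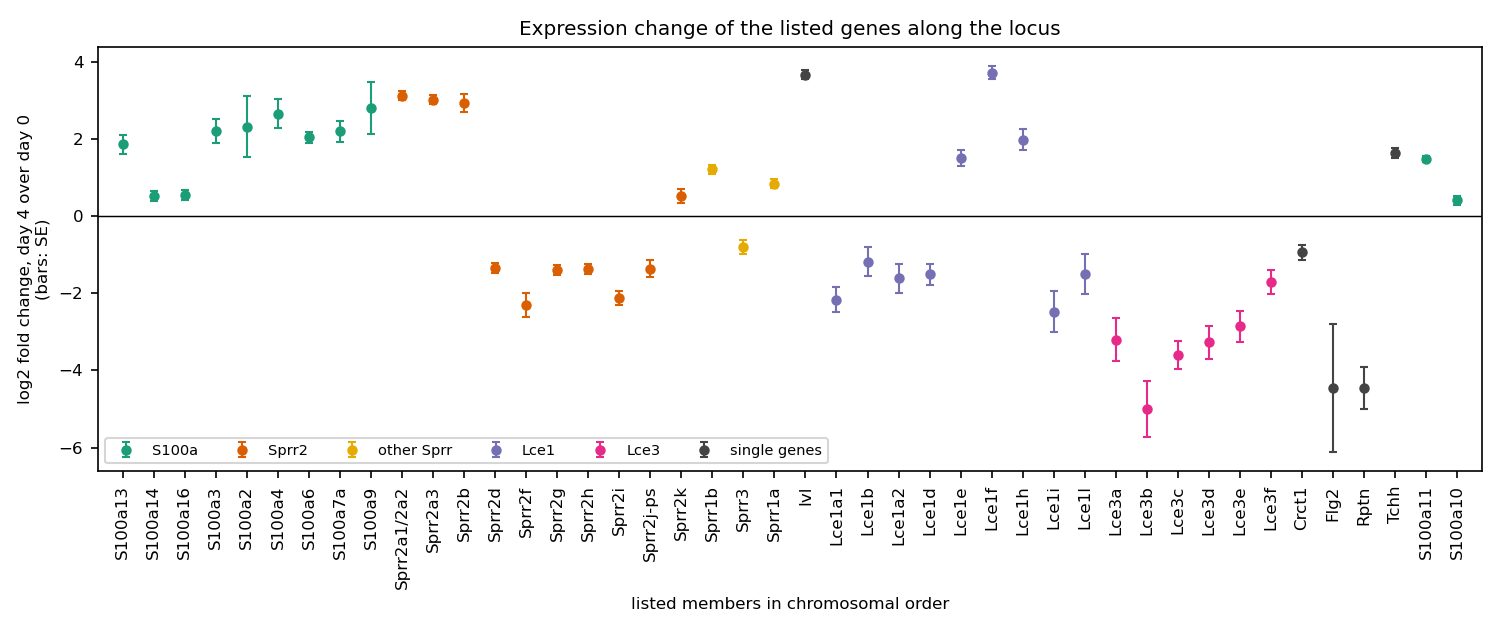
Log2 fold change of the 44 listed members (points, day 4 over day 0, bars are the authors' SE from 3 input libraries per day), in chromosomal order and coloured by family. All 11 listed S100a genes lie above 0 and all 6 Lce3 genes below it, while Sprr2 and Lce1 genes fall on both sides in runs of listed genes.

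To give a level for each day, the deposited mean normalized count was divided between days with the fold change, assuming that it averages 3 input libraries per day. These implied counts are not scaled to transcript length, so they are compared between days and not between genes. Involucrin had an implied normalized count of 7779 at day 4 and 610 at day 0. Involucrin's log2 fold change of 3.67 (SE 0.12, DESeq2 adjusted p = 6.5e-197) per the authors' deposited table is a 12.8-fold rise. Only 10 of the 4040 higher genes had a larger test statistic than Ivl per the authors' deposited table.

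**Figure D2:**
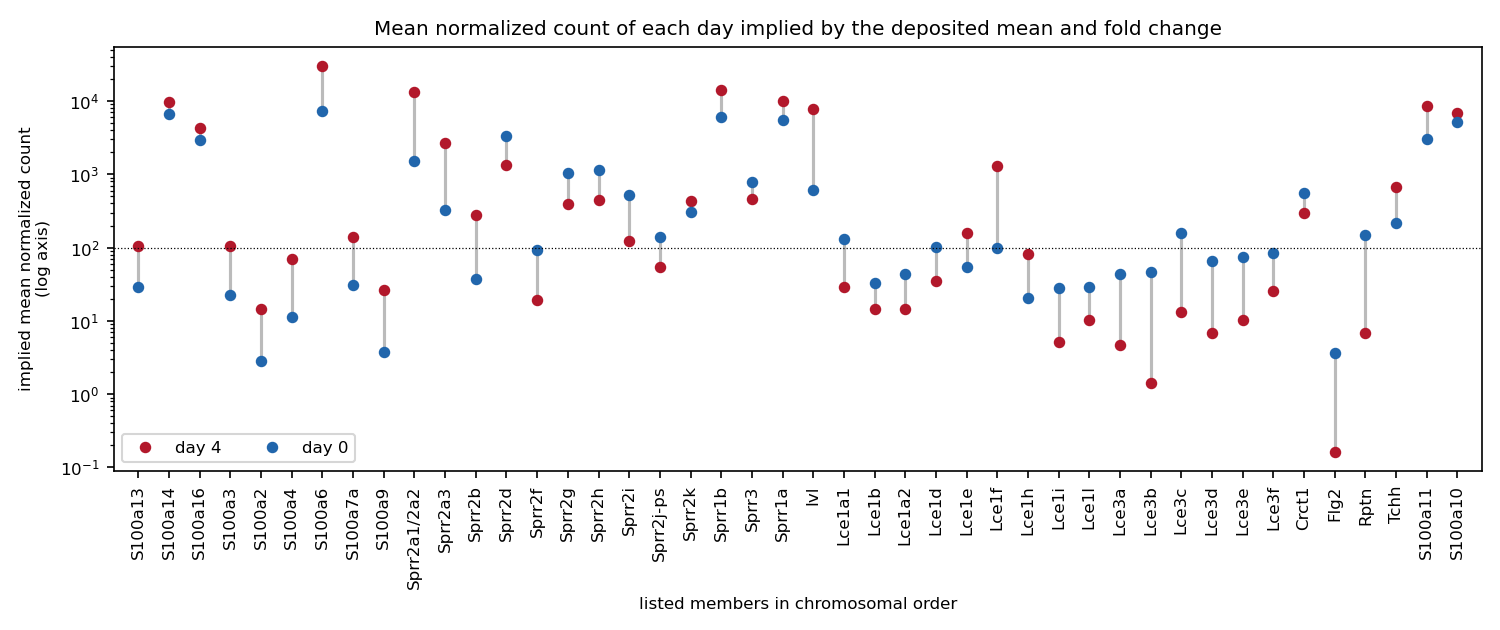
Implied mean normalized count (log axis) of each of the 44 listed members at day 4 (red) and day 0 (blue), joined by a grey line, in chromosomal order; the dotted line marks 100. Ivl and Lce1f rise by about an order of magnitude, and the 6 Lce3 genes stand at 26.0 or less at day 4.

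Small proline-rich genes went both ways. Of 13 listed Sprr genes, 6 rose and 7 fell per the authors' deposited table. Sprr2a1 and Sprr2a2, near-identical copies whose reads the files do not separate, had an implied count of 13245 at day 4 and 1521 at day 0, and a log2 fold change of 3.12 (SE 0.12, DESeq2 adjusted p = 2.9e-159) per the authors' deposited table. Sprr2a3 had implied counts of 2653 at day 4 and 326 at day 0 (log2 fold change 3.02, SE 0.11, per the authors' deposited table). Sprr2b stood at 282 at day 4 and 36.8 at day 0 (log2 fold change 2.94, SE 0.23, per the authors' deposited table). These rises differed by less than the sum of their SEs, and Sprr2k was the other Sprr2 gene that rose, with a log2 fold change of 0.53 (SE 0.19, DESeq2 adjusted p = 0.0108) per the authors' deposited table.

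The 6 remaining Sprr2 genes fell. Sprr2d had an implied count of 1335 at day 4 and 3384 at day 0, with a log2 fold change of -1.34 (SE 0.13, DESeq2 adjusted p = 1.9e-22) per the authors' deposited table. Sprr2h (-1.36), Sprr2g (-1.40) and Sprr2j-ps (-1.36) had log2 fold changes within 1 SE of that of Sprr2d per the authors' deposited table. Sprr2g and Sprr2j-ps are both annotated as transcribed pseudogenes. Implied counts were 397 at day 4 and 1044 at day 0 for Sprr2g, and 441 at day 4 and 1132 at day 0 for Sprr2h. Sprr2i (-2.11, SE 0.18) and Sprr2f (-2.29, SE 0.31) fell further per the authors' deposited table. Summed over all 10 listed Sprr2 genes, implied counts were 18987 at day 4 and 8508 at day 0. Sprr2 copies are alike in sequence, and, with the handling of reads that fit several copies not given in the sources used here, values of single Sprr2 genes are uncertain.

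Of the 3 other Sprr genes, Sprr1a and Sprr1b rose and Sprr3 fell. Sprr1b had 14100 implied counts at day 4 and 6049 at day 0, with a log2 fold change of 1.22 (SE 0.12) per the authors' deposited table. Sprr1a, on the far side of Sprr3, had 9998 at day 4 and 5563 at day 0 (log2 fold change 0.85, SE 0.12, per the authors' deposited table). Both genes are known to be induced in stressed or wounded skin. Sprr3, a gene of internal stratified epithelia, fell to 459 implied counts at day 4, against 793 at day 0 (log2 fold change -0.79, SE 0.18, per the authors' deposited table).

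Because Sprr2 neighbours went opposite ways, the sequences just before their annotated starts are shown. RefSeq windows (GRCm38.p6) of 250 bases before to 50 after the start matched 37 of the 44 members, all but Crct1, Lce1f, S100a10, S100a14, S100a2, Sprr2g and Sprr2j-ps. The last 200 bases before the start are given 5′ to 3′ for 2 genes that rose (Sprr2b, Sprr2k) and 4 that fell (Sprr2d, Sprr2f, Sprr2h, Sprr2i). Capitals mark the AP-1 motif TGANTCA, which reads the same on both strands, the octamer motif ATTTGCAT on either strand, and TATAAA on the coding strand; no 2 marked motifs overlap.
Sprr2b (chr3:92316505-92316704, plus strand): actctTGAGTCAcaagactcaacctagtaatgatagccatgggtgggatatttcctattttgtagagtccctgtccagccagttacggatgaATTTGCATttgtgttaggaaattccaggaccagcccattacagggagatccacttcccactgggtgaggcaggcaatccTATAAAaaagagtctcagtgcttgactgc
Sprr2k (chr3:92432382-92432581, plus strand): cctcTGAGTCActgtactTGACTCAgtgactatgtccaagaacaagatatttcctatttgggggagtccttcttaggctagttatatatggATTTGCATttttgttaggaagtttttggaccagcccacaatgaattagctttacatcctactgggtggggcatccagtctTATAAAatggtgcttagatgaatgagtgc
Sprr2d (chr3:92338940-92339139, plus strand): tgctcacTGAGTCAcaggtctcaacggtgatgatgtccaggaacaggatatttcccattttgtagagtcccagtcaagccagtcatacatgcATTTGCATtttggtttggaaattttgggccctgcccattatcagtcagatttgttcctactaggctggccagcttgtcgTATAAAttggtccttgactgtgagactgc
Sprr2f (chr3:92364987-92365186, plus strand): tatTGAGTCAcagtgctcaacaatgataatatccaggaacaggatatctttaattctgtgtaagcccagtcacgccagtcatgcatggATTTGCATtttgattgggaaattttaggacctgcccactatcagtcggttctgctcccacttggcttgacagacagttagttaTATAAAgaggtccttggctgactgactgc
Sprr2h (chr3:92385485-92385684, plus strand): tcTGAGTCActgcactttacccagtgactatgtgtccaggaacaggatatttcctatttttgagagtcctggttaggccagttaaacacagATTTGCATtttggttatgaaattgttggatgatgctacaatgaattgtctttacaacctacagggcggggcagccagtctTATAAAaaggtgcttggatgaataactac
Sprr2i (chr3:92407791-92407990, plus strand): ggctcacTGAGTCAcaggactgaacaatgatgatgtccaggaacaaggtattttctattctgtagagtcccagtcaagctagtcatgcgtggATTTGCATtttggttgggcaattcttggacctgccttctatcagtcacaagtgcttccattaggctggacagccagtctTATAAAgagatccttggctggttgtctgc

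All 6 sequences held the same 3 motifs in the same order. The octamer was picked after these sequences had been read, so its presence in all 6 is no independent result. Of the 2 genes that rose, Sprr2k had a log2 fold change of only 0.53 per the authors' deposited table. Whether these sequences bear on the direction of a gene was not tested. The AP-1 motif began between 198 and 193 bases before the start, the octamer between 112 and 108 bases and TATAAA 29 bases before it, and Sprr2k had a second AP-1 motif 182 bases before the start. Pairwise identity over the aligned 200 bases lay between 64.8% and 80.7% in 15 pairs. The most alike pair was Sprr2k and Sprr2h, of which Sprr2k rose and Sprr2h fell, while the 2 genes that rose, Sprr2b and Sprr2k, shared 67.8%. In the whole windows of all genes, TGANTCA occurred in 7.81% of 32851, ATTTGCAT in 1.74% and TATAAA in 8.32%. The annotated windows of Sprr2a1, Sprr2a2 and Sprr2a3 held none of the 3 motifs, and those of Sprr2a1 and Sprr2a2 were identical. The annotated spans of Sprr2a1 (92215835 to 92222491) and Sprr2a3 (92285304 to 92289264) are longer than those of the 6 genes shown, such as Sprr2b (92316705 to 92318085). Their windows may therefore not lie at the matching place, and sequence outside the windows was not searched.

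Ivl, Sprr1a and Sprr1b, envelope genes that rose, are shown for the same motifs, marked alike.
Ivl (chr3:92573736-92573935, minus strand): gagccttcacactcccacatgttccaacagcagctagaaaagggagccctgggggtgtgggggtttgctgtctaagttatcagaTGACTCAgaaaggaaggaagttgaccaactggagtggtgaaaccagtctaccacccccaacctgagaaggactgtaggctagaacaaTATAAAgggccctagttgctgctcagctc
Sprr1a (chr3:92485882-92486081, minus strand): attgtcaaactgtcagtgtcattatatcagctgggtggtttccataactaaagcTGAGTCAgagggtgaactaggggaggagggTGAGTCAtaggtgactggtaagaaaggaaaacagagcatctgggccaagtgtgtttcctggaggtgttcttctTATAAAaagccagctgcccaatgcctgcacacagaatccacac
Sprr1b (chr3:92438780-92438979, minus strand): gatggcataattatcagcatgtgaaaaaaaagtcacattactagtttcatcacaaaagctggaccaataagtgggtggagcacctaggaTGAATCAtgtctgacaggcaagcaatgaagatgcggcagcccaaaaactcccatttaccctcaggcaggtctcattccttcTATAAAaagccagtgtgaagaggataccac
Ivl held TGANTCA 116 bases before its start, Sprr1b 111 bases and Sprr1a both 146 and 116 bases before it. Over the 37 members with a window, 13 held TGANTCA, 7 that rose and 6 that fell, and no window of the 14 Lce genes did. The other motifs searched were AACCNGTT, bound by grainyhead-like factors, in 3 members (2.09% of all windows), and TTGCNNAA, bound by C/EBP factors, in 4 (10.8% of all windows), on either strand. The octamer was added after the sequences had been read. These matches describe letters in a window and are no sites of binding.

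Most late cornified envelope genes fell, while their summed implied count was higher at day 4. Of 15 listed Lce genes 12 fell and 3 rose per the authors' deposited table, and all 15 changed at least 2-fold. Lce1f rose most, with 1299 implied counts at day 4 and 98.5 at day 0 (log2 fold change 3.72, SE 0.17, DESeq2 adjusted p = 9.5e-107, per the authors' deposited table), the largest rise of any member. The nearest listed genes on either side of Lce1f, Lce1e (1.51, SE 0.20) and Lce1h (1.99, SE 0.27), also rose per the authors' deposited table. Lce1g, between Lce1f and Lce1h, was not listed.

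The 6 Lce3 genes, known from human psoriasis genetics and from barrier repair, all fell, with a median log2 fold change of -3.24 per the authors' deposited table. Lce3c had 13.2 implied counts at day 4 and 159 at day 0 (log2 fold change -3.60, SE 0.36, per the authors' deposited table). Lce3b had 1.43 at day 4 and 45.8 at day 0 (log2 fold change -5.00, SE 0.73, per the authors' deposited table), a fall larger than that of all but 16 of the genes listed. The log2 fold changes of Lce3d (-3.27, SE 0.42), Lce3a (-3.20, SE 0.56), Lce3e (-2.86, SE 0.41) and Lce3f (-1.70, SE 0.31) per the authors' deposited table followed. All 6 had a mean normalized count under 100, at most 86.3 per the authors' deposited table, so their values rest on few reads.

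Among Lce1 genes that fell, the largest changes were those of Lce1i (-2.47, SE 0.53) and Lce1a1 (-2.17, SE 0.32) per the authors' deposited table. The falls of Lce1a2 (-1.61, SE 0.38), Lce1d (-1.50, SE 0.28), Lce1l (-1.50, SE 0.52) and Lce1b (-1.18, SE 0.38) per the authors' deposited table differed by less than the sum of their SEs. Summed over all 15 listed Lce genes, implied counts were 1707 at day 4 and 1013 at day 0, higher at day 4 although most Lce genes fell; Lce1f alone held 1299 at day 4. Lce genes are also near-copies of each other, with the same limit on single genes.

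The listed fused-type S100 genes went both ways. Trichohyalin (Tchh), best known from the inner root sheath of hair, rose to 679 implied counts at day 4, against 217 at day 0 (log2 fold change 1.65, SE 0.13, per the authors' deposited table). Repetin (Rptn) had 6.78 at day 4 and 148 at day 0 (log2 fold change -4.45, SE 0.55, per the authors' deposited table). Filaggrin 2 (Flg2), a late granular-layer gene, was barely detected, with a mean normalized count of 1.88 and a log2 fold change of -4.44 (SE 1.66) per the authors' deposited table. Crct1, a small cysteine-rich gene next to the Lce3 group, had 293 at day 4 and 562 at day 0 (log2 fold change -0.94, SE 0.18, per the authors' deposited table).

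Every listed S100a gene rose, 11 of 11, with a median log2 fold change of 2.04 per the authors' deposited table. S100a6 (calcyclin) had 29861 implied counts at day 4 and 7244 at day 0 (log2 fold change 2.04, SE 0.15, per the authors' deposited table). S100a11, a transglutaminase substrate of the envelope, had 8555 at day 4 and 3068 at day 0 (log2 fold change 1.48, SE 0.09, DESeq2 adjusted p = 7.8e-64, per the authors' deposited table).

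The smaller rises were those of S100a16 (0.55, SE 0.13), S100a14 (0.53, SE 0.12) and S100a10 (0.41, SE 0.12), the annexin A2 partner, per the authors' deposited table. S100a14 had 9744 implied counts at day 4 and 6765 at day 0, S100a16 4263 at day 4 and 2916 at day 0, and S100a10 6853 at day 4 and 5161 at day 0. Annexin A2 itself was not listed, and Anxa1 was the only listed gene of 7 partners and receptors (0.77, SE 0.12, per the authors' deposited table).

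Other S100a genes changed more but at low counts. S100a9, a subunit of calprotectin, had 26.4 implied counts at day 4 and 3.78 at day 0 (log2 fold change 2.81, SE 0.69, per the authors' deposited table). Neutrophil RNA carries S100a9 too; of 8 myeloid markers Itgam rose (6.79, mean normalized count 11.7) and Cd68 fell (-1.92) per the authors' deposited table, and Ptprc, Csf3r, Mpo, Elane, Ly6g and Lyz2 were not listed. S100a4, also a fibroblast gene, had 70.3 at day 4 and 11.1 at day 0 (log2 fold change 2.66, SE 0.37, per the authors' deposited table). Of the fibroblast markers Pdgfra rose (1.73) and Col6a1 fell (-2.07) per the authors' deposited table; the part of other cells in these values was not tested.

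S100a3 (2.21, SE 0.31), S100a7a (2.20, SE 0.26), the mouse relative of psoriasin, S100a13 (1.87, SE 0.25) and S100a2 (2.32, SE 0.79, mean normalized count 8.60) completed the family per the authors' deposited table. S100a7a had 142 implied counts at day 4 and 30.9 at day 0. S100a2 lies within the annotated span of S100a3, and, with strand use in counting not given in the sources used here, their reads may not be separate.

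The m6A peak lists give where methylated RNA was enriched in the transcripts. At day 4, 32 peaks lay in 19 members and at day 0, 30 peaks lay in 18, per the authors' lists. Among the 7978 genes of the expression table, 55.8% had a day 4 peak and 59.5% a day 0 peak. Peaks were listed on both days in 15 members, 10 that rose and 5 that fell. They were listed at day 4 only in S100a7a, the Sprr2a1 and Sprr2a2 pair, Crct1 and Tchh, and at day 0 only in Sprr2i, Lce1a1 and Lce3c. The transcripts of the last 3 fell, as did nearly all outside the complex with a peak at day 0 only, of which 4.03% were higher at day 4; that pattern also served to read the direction of the table.

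Listed peaks were more frequent in members with many reads. Of 21 members averaging 100 normalized counts or more, 18 had a peak on either day, against 4 of 23 below that mean. Over all genes of the table the shares were 80.2% and 6.99%. The 3 members above that mean without a peak were S100a6, Sprr2b and Lce1e. S100a6 had none on either day although its mean normalized count of 18553 was the highest of the members per the authors' deposited table.

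Peaks in these genes had low enrichment scores. The score is the authors' own value per peak, on a scale they do not state, and peaks are ranked here only within a list. At day 4, 4 of 32 peaks were above the median score of that list (17.1), and at day 0, 2 of 30 were above 21.4. The median percentile of the members' peaks within the list was 8.54 at day 4 and 4.78 at day 0. The highest score was 369 at day 4, for a peak listed under both Sprr2a1 and Sprr2a2 from 92256306 to 92256405 (mm10), and at day 0 it was 44.8, in Lce1d. S100a16 (17.8) and Lce1d (18.0) held the other day 4 peaks of high score beside the second Sprr2a peak (256), from 92221493 to 92221592. The 2 Sprr2a peaks lie in the annotated spans of Sprr2a2 and Sprr2a1, near-identical copies. They may therefore rest on the same reads and stand for 1 signal, which was not tested.

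Peaks met a peak of the other day about as often as over the whole lists. Overlap by 1 bp or more, on the same strand, with a peak of the other day held for 23 of 32 day 4 peaks, against 78.9% of all day 4 peaks, and for 23 of 30 day 0 peaks, against 70.2% of all. Many peaks sat at the ends of these genes, with distance counted along the genome and 1 day 4 peak outside its gene's annotated span left out. Within 200 bp of the annotated 5′ end lay 8 of 31 day 4 peaks (25.8%, against 6.69% of all peaks) and 9 of 30 day 0 peaks (30.0%, against 5.12%). Within 200 bp of the 3′ end lay 32.3% of day 4 peaks (12.5% of all) and 30.0% of day 0 peaks (10.6% of all). No adjustment was made for the length of the genes, and long peaks may span introns.

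Involucrin carried 3 peaks on each day. Along involucrin, the peak nearest the 5′ end ran from 92572577 to 92573735 (mm10, minus strand) at day 4 and from 92572577 to 92572774 at day 0. That peak had a score of 3.83 at day 4 and 7.06 at day 0. The middle peak had a score of 2.12 at day 4 and 3.88 at day 0, and the peak nearest the 3′ end 5.09 at day 4 and 4.92 at day 0. Sprr1a likewise had 3 on each day. Sprr1b had 1 at day 4 and 3 at day 0, the pair listed only at day 0 being of low score (1.82 and 1.59). S100a11 and S100a10 had 2 on each day, and S100a14 had 3 at day 4 and 2 at day 0. Sprr2d had 2 at day 4 and 3 at day 0. For genes listed on both days the scores stand side by side here and no change is read from them, since no common scale is stated. Lce1d had 18.0 at day 4 and 44.8 at day 0, and Sprr1b, at its long peak, 9.99 at day 4 and 19.8 at day 0. Sprr2k had 6.16 at day 4 and 14.7 at day 0, Sprr3 14.4 at day 4 and 15.5 at day 0, and S100a16, at its stronger peak, 17.8 at day 4 and 21.9 at day 0. Sprr2g had 3.99 at day 4 and 3.29 at day 0, and Sprr2a3, at its long peak, 5.18 at day 4 and 4.48 at day 0. Sprr2h was listed with a 50 bp window on each day that did not overlap, of score 2.58 at day 4 and 2.46 at day 0. The peaks listed at day 4 only scored 16.2 in Tchh, 6.43 in Crct1 and 4.99 in S100a7a, and those at day 0 only 13.5 in Lce1a1, 5.49 in Sprr2i and 4.34 in Lce3c. One Lce1f peak, at day 4 from 92718934 to 92718983, had the authors' unadjusted p = 0.256, the only peak of the members above 0.05.

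**Figure D3:**
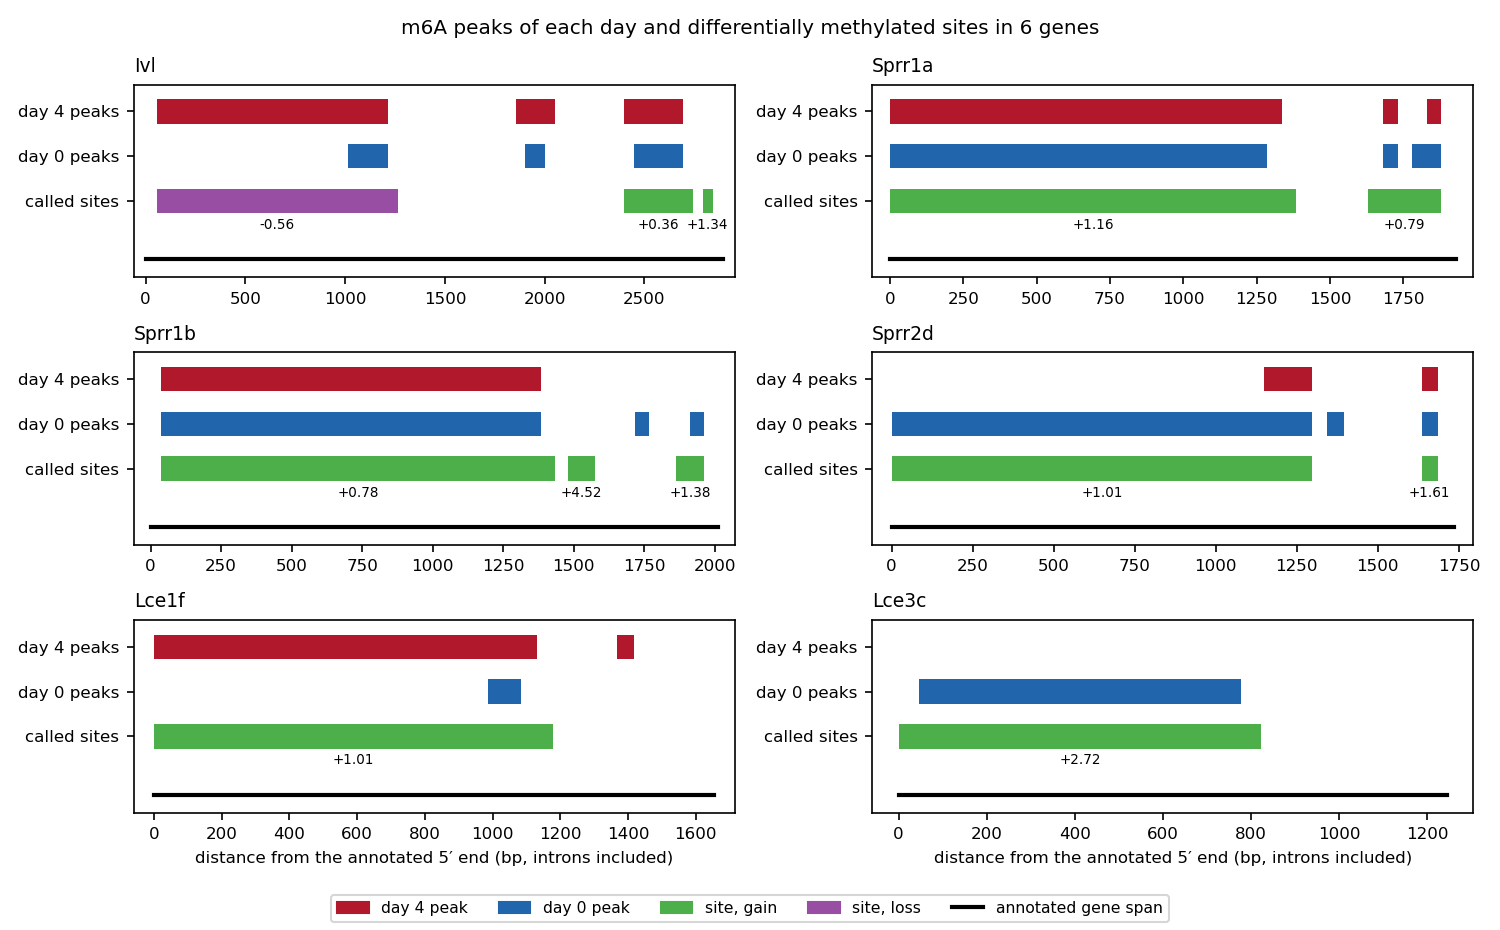
Peaks of day 4 (red) and day 0 (blue) and differentially methylated sites (green for gain, purple for loss, with the authors' log fold change under each) along Ivl, Sprr1a, Sprr1b, Sprr2d, Lce1f and Lce3c, as distance in bp from the annotated 5′ end. Long peaks and sites start at or near the 5′ end, the only loss is in Ivl, and Lce3c has a gain over a peak listed at day 0 only.

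Differential methylation between the days was called at 21 sites in 13 members per the authors' deposited table, 20 gains and 1 loss at day 4. A called site was held by 17.8% of all genes in the expression table. Over all 36796 sites tested 6.96% were called, 4.79% as gains and 2.17% as losses, so that 68.8% of all called sites were gains. The number of sites tested in the members is not known. Gains were found at 11 of 12 sites in the 7 members whose transcripts rose and at 9 of 9 sites in the 6 whose transcripts fell. The median log fold change of the gains was 1.53, against 1.82 over all finite gains per the authors' deposited table; its log base is not stated.

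Ivl held the only loss, at the 5′ site from 92572527 to 92573735 (log fold change -0.56, false discovery rate 1.3e-04, per the authors' deposited table). Toward its 3′ end the same transcript gained, at 92571048 to 92571393 (0.36, false discovery rate 0.00644) and at 92570949 to 92570998 (1.34, false discovery rate 0.0390) per the authors' deposited table.

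The largest gain was in Sprr1b, from 92437242 to 92437339 (mm10, log fold change 4.52, false discovery rate 1.4e-27, per the authors' deposited table). Only 3 of all 2561 called sites had a smaller p per the authors' deposited table, yet it overlapped no listed peak on either day. Other sites of Sprr1b gained by 1.38 and 0.78, and those of Sprr1a by 1.16 and 0.79, per the authors' deposited table. Transcripts that fell also held gains: Lce3c (2.72), Crct1 (2.60 and 1.85), Sprr3 (2.32), Lce1d (1.91), Sprr2h (1.72 and 1.38) and Sprr2d (1.61 and 1.01) per the authors' deposited table. Of these, Lce3c and Lce1d had only 13.2 and 35.4 implied counts at day 4. The Crct1 site of 1.85, the Sprr3 site and the Sprr2h site of 1.72 overlapped no listed peak. Their false discovery rates were 0.0192, 0.0106 and 0.0255 per the authors' deposited table. Gains in the remaining members that rose were those of S100a16 (1.63), Sprr2a3 (1.60), Tchh (1.45) and Lce1f (1.01) per the authors' deposited table.

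**Figure D4:**
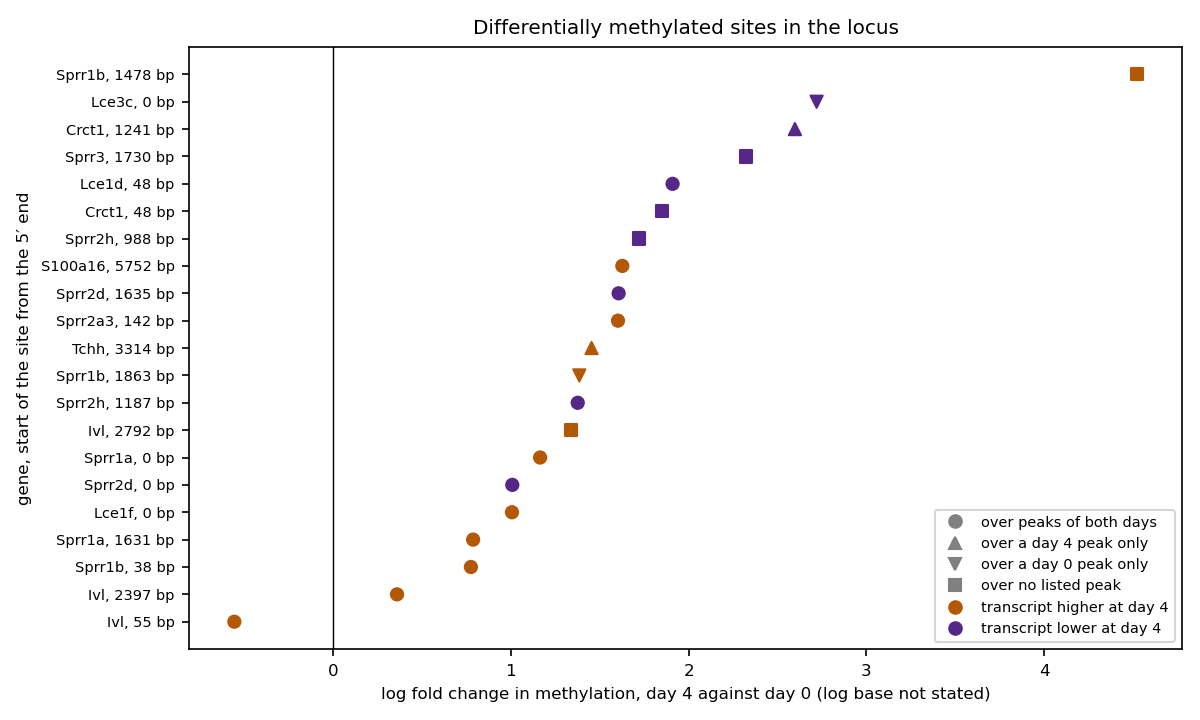
Log fold change in methylation (x axis, day 4 against day 0, log base not stated) of the 21 called sites, each named by gene and by the distance of its start from the 5′ end. Marker shape gives the listed peaks under the site and colour the direction of the transcript; 20 sites lie right of 0 and 1, in Ivl, left of it.

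Some gains lay where no day 4 peak was listed. Of the 21 sites, 12 lay over peaks of both days, 2 over a day 4 peak only, 2 over a day 0 peak only and 5 over none, while 22.8% of all called sites lay over none. The pair over a day 0 peak only, in Lce3c and Sprr1b, were called as gains at day 4. Over all genes, 29 of 119 such sites were gains. Among the 11 gains over peaks of both days, 6 (54.5%) had the higher peak score at day 4, against 58.5% of 821 over all genes. Called gains with a lower score at day 4 lay in Lce1d, Lce1f, Sprr1a and Sprr1b. The scores have no stated common scale, and why the 2 measures differ at these sites was not tested.

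Genes that work with the complex were also mixed. Of 19 cross-linkers and other envelope proteins encoded elsewhere, 7 rose, 7 fell and 5 were not listed. The protease Asprv1 (-2.89, SE 0.14), Krtdap (-1.73, SE 0.11), desmoglein Dsg1a (-1.21, SE 0.18), stefin Stfa1 (-0.98, SE 0.44), envoplakin (Evpl, -0.76, SE 0.16) and transglutaminase 1 (Tgm1, -0.53, SE 0.10) fell per the authors' deposited table. Periplakin (Ppl, 0.64, SE 0.16), corneodesmosin (Cdsn, 0.79, SE 0.12) and Krt10 (1.47, SE 0.15) rose per the authors' deposited table. Krt1 (5.10) and the caspase Casp14 (2.26) rose at mean normalized counts of 2.65 and 9.49 per the authors' deposited table. Tgm5 (0.65, SE 0.15) rose, and Tgm3 was not listed, per the authors' deposited table.

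Of 6 neighbours in the locus outside the name rule, Pglyrp3 (3.35, SE 0.26), Lelp1 (3.17, SE 1.19) and Pglyrp4 (1.63, SE 0.39) rose, Kprp (-2.67, SE 0.24) fell, and Crnn and Smcp were not listed per the authors' deposited table. Lelp1 had a mean normalized count of only 3.86 per the authors' deposited table. Of 24 factors known to regulate the locus, 10 rose, 7 fell and 7 were not listed. Fosb (3.91, SE 0.51), the aryl hydrocarbon receptor (Ahr, 1.54, SE 0.14), Prdm1 (1.48, SE 0.14) and Zfp750 (1.19, SE 0.12) led the rises per the authors' deposited table. The mean normalized count of Fosb was only 26.5 per the authors' deposited table. Ovol1 (-2.21, SE 0.17), Fos (-1.84, SE 0.16), Cebpb (-1.25, SE 0.21) and Fosl1 (-1.11, SE 0.23) led the falls per the authors' deposited table, so that AP-1 subunits stood on both sides.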

How the data were processed

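Keratinocyte RNA of day 4 and day 0 was profiled in 12 libraries, grouped by title. HISAT2 2.1.0, DESeq2 1.18.1 and the build mm10 are named in the submitters' processing notes, with peak caller and methylation test not given in the sources used here. Per the file headers, the expression table holds a mean normalized count (a signal), a log2 fold change with its SE, a test score (Wald statistic) and p-values. The methylation table holds a deposited log fold change, kept as a score since no base is stated, with p-values; the deposited peak lists hold an enrichment score and an unadjusted p-value. Both comparison tables list only calls under 0.05. How many features were tested follows from each p-value, its rank and its Benjamini-Hochberg value, a step checked on simulated data.

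Directions were read from genes outside the complex. Of 492 with a peak at day 4 only 93.9% had a positive fold change, against 4.03% of 794 with one at day 0 only, and 98.8% of 417 sites over a day 4 peak only were gains. Genes go by symbol, as the Ensembl identifiers of S100a14 and Sprr2a3 belong to S100a11 and Sprr2a1. Members, lists and alternatives were chosen with earlier results of these data known. Lists are described by counts and medians, with no test of the list. The naming rule took every member with a peak or site, every single gene, the 6 largest rises and falls per family and up to 4 genes per direction of other lists; a few further list members were named for their role. Promoter windows were aligned globally with Biopython 1.88 under Python 3.11.15. Intervals, replicates left out and per-library values need columns that these tables do not hold.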

Additional observations from a re-analysis of the deposited data

How the results depend on the processing

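Counts of members listed in the expression table stayed within 1.5 times under an adjusted p under 0.01 (42 members), changes of 2-fold or more (37), means of 10 normalized counts or more (42) and with every symbol counted (45). At means of 100 normalized counts or more, 21 members remained, 15 higher and 6 lower, so the even split held only with members of few reads included. Without Sprr and Lce genes 16 remained, 13 higher and 3 lower. Members with a peak numbered 22, and 20 at an unadjusted p under 1e-5; restricted to scores above the median of each list there were 3, of which 3 at day 4 and 2 at day 0. Of 32 day 4 peaks 19 overlapped, in place of 23, when 50% of both had to be shared. Of 20 gains 13 were left at a false discovery rate under 0.01 and 15 over a listed peak, and the loss in Ivl was kept in both. No paired analysis was possible because the deposited tables hold no column per library; for the same reason replicates could not be left out in turn, and neither the block nor the left-out replicates were run. Depth per library is unknown, and the 23 members under a mean of 100 rest on few reads.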

Other observations

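Kprp, a keratinocyte proline-rich gene of the locus that the name rule does not cover, had 0 peaks at day 4 and 5 at day 0, and its transcript fell (log2 fold change -2.67, SE 0.24, in the authors' deposited table). This gene was chosen after its values were seen. Of the 19 envelope proteins encoded elsewhere, Asprv1 carried 4 called methylation sites and Sbsn 2, and Sbsn had 5 peaks at day 4 and 2 at day 0.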
